A study of Caenorhabditis japonica with 3 samples.

Results

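The genes described here each have 2 listed 3′ end peaks whose locations differ by at least 100. They were chosen by location alone, from all rows with a numeric peak location, as genes with exactly 2 such rows at that distance or more. The rule gave 117 genes with 234 peaks, 2.96% of the 3955 genes and 5.07% of the 4619 peaks in the table. The table holds 480 genes with 2 peaks, and the other 363 have their peaks under 100 apart. Each gene also has a row of total reads, which includes reads outside its listed peaks.

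The samples are 46 single embryos of *Caenorhabditis japonica*, a male-female nematode and a relative of *C. elegans*, each measured by CEL-Seq, a method that barcodes the polyA RNA of an embryo and counts reads at transcript 3′ ends. Embryos were cut out of adults, washed in bleach and kept at 20 °C, and no strain, mutation or treatment is named. The early library holds 16 embryos (1, 2 and 4 cells, then 10 to 130 minutes after the 4-cell stage), the middle library 16 (140 to 290 minutes) and the late library 14 (300 to 430 minutes), at steps of 10 minutes. Each time has 1 embryo, so an SD over a window includes the difference in age, and the window an embryo belongs to cannot be told apart from its library. Each embryo is a whole animal, so fewer cells of a type and less RNA per cell cannot be told apart in any level below.

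Most eukaryotic mRNAs are cut and polyadenylated at a site downstream of the coding sequence, and many genes have more than 1 such site. The choice of site can set which regulatory elements the 3′ untranslated region carries, and sites within introns can change the protein. In nematodes, alternative 3′ ends are known to differ between tissues and stages, and embryos start with maternal mRNAs that are later degraded as zygotic transcription begins. The origin and direction of the deposited locations are not stated, so peaks are called lower or higher by location, and not proximal or distal. The files pair no gene identifier with a name or a sequence, so genes are given by identifier, without roles, and tissue markers could not be checked.

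The distance between the peaks ran from 101 to 13091, with quartiles at 149, 223 and 559. It was under 200 in 49 genes, 200 to under 500 in 35, 500 to under 1000 in 8 and 1000 or more in 25. Just inside the limit were CJA08031 (101 apart, 250 reads, higher peak 40.4% of the gene) and CJA17773 (102 apart, 408 reads, 27.9%). Just outside it were CJA10737 (96 apart, 4279 reads, 69.5%) and CJA11907 (95 apart, 2272 reads, 5.37%). The widest pair was that of CJA07137, with peaks at 1589 and 14680. Locations were not spread evenly: 943 of the 4619 peaks in the table lie at 5000 to under 5600, and 11 lower and 14 higher member peaks lie there too.

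Neither end dominated the group. The higher peak held a median of 40.3% of its gene's reads (range 5.42% to 88.1%) and the lower peak a median of 44.2%, and the higher peak was the larger in 55 genes and the lower in 62. Reads outside both peaks made up a median of 9.06% and over 20% in 18 genes, against a median of 5.62% in the 363 closer pairs. The smaller peak held under 10% of the gene in 20 genes. The median share of the higher peak was 34.6%, 43.5%, 50.7% and 49.2% over the 4 ranges of distance, from close to wide.

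**Figure D1:**
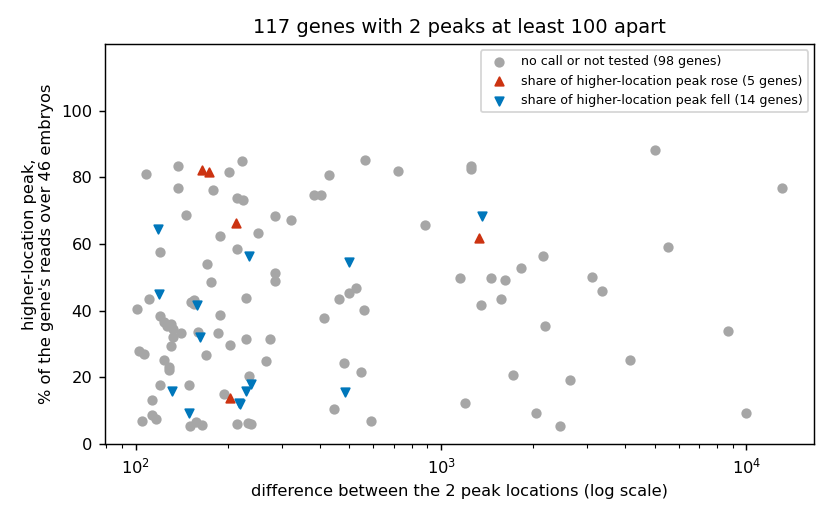
Each point is 1 of the 117 genes, with the difference between its peak locations on a log axis and the share of its reads, summed over 46 embryos, that fell in the higher-location peak. Triangles mark the 19 genes whose share rose (5) or fell (14) over the course, and they lie mostly at distances under 500.

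The 117 genes held 216190 reads, 4.16% of the reads in the table, and 239 to 22102 reads each (median 894). Reads of these genes per embryo ran from 76 to 16851 in the early library (median 1488), from 73 to 21033 in the middle one (median 2953.5) and from 91 to 18572 in the late one (median 2813). Over all listed genes the embryos had 1719 to 454691 reads (median 61827), and 14 embryos had under a 0.25 share of that median, 5 early, 4 middle and 5 late. Shares were therefore taken only where an embryo had 5 or more reads of a gene, and a median of 27 embryos per gene met this. Summed over the genes, the higher peaks held 45.2% ± 3.93 of the reads early (SD, n = 16), 46.5% ± 2.81 in the middle window (SD, n = 16) and 46.1% ± 5.43 late (SD, n = 14). These values lie within each other's spread, so no shift of the summed reads towards one end was seen. Sums weigh genes by their reads. Gene by gene, the higher peak's log2 fold change lay below the lower's in 74 genes and above it in 43 from early to middle. These counts were 54 and 63 from middle to late and 70 and 47 late against early (edgeR without the filter on low counts, described below). Whether these splits go beyond counting error was not tested.

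Single genes did shift. The higher peak's share was fitted on the embryo's place in the series, 1 step per cell stage or 10 minutes, by quasi-binomial logistic regression, with Benjamini-Hochberg adjustment over 1215 peaks of genes with 2 or more peaks and a threshold of 0.05. Of 115 genes that could be tested, 19 changed (16.5%), beside 15.8% of all the peaks tested, so the group was called about as often as the rest. In 5 genes the share of the higher peak rose and in 14 it fell, and in 10 of the 14 the higher peak was the smaller of the pair. It was the smaller in 62 of all 117 genes. Size was summed over the same embryos in which the share fell, so the 2 are not independent. The rises depended on the read minimum, with 3 rises and 12 falls at 10 reads or more and 8 rises and 14 falls at 3 or more. Among the 359 closer pairs tested, 57 changed (15.9%), with 32 rises and 25 falls, and whether the split of directions differs from that of the wider pairs was not tested. By distance, 8 of 49, 8 of 35, 1 of 8 and 2 of 23 tested genes changed. Adjusted p-values of the 19 lay between 6.05e-10 and 0.0499, and 32 genes were under 0.05 before adjustment.

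Time and library could not be separated for these calls. With the library as a covariate, 0 of the 115 genes passed (13 before adjustment, lowest adjusted p = 0.336), although the slope had the same sign in 14 of the 19. Within single libraries 0 passed by the same regression, with 5 of 50 genes under 0.05 before adjustment in the early library, 9 of 71 in the middle one and 1 of 34 in the late one. The slope within a library had the sign of the whole course in 6 of 10 changed genes with enough embryos in the early library, 9 of 16 in the middle one and 3 of 7 in the late one.

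CJA14647 exchanged one end for the other. Its peaks lie at 5322 and 6651, and in the early embryos with at least 5 reads the higher one held 0% to 6.25% of the reads (median 0%, n = 6). In the middle embryos it held 66.7% to 100% (median 91.9%, n = 10) and in the late ones 64.3% to 100% (median 90.9%, n = 6). The early embryos do not overlap with the others. The 1-cell embryo had 26 reads in the lower peak and 0 in the higher, the embryo at 30 minutes 48 and 1, and the embryo at 170 minutes 6 and 25. Reads summed over the early library were 103 in the lower and 6 in the higher peak, so the gene is thinly counted, and at 90 minutes all 3 of its reads were in the higher peak. The slope was 0.165 ± 0.0355 log-odds per step (SE) with an adjusted p of 0.00254.

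CJA16785 has far more reads, 8903, and peaks at 1895 and 2068. Its higher peak held 12.5% to 85.7% in the early embryos (median 50%, n = 15), 69.2% to 100% in the middle ones (median 81.9%, n = 15) and 69.2% to 100% in the late ones (median 90.5%, n = 13). Embryos of the windows overlap, but the early mean of 54.3% ± 19.1 (SD, n = 15) lay below the middle mean of 82.5% ± 7.53 (SD, n = 15) and the late mean of 88.5% ± 7.99 (SD, n = 13). The slope was 0.0546 ± 0.00552 (SE) with an adjusted p of 6.05e-10. The embryo at 50 minutes had 112 reads in the lower peak and 315 in the higher, and the embryo at 430 minutes 70 and 933. Within the early library the slope was -0.0380 ± 0.0346 (SE), and its adjusted p with the library as a covariate was 0.969.

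CJA16493, with peaks at 4897 and 5059, moved the other way. The higher peak held 38.5% to 90% in the early embryos (median 61.2%, n = 10), 21.8% to 80% in the middle ones (median 26.8%, n = 11) and 0% to 23.7% in the late ones (median 19.0%, n = 9). The late embryos all lay below the early ones. The slope was -0.0522 ± 0.00669 (SE) with an adjusted p of 2.27e-06. Within the middle library some embryos followed the fall, with 57.9% at 140 minutes, 39.6% at 170, 23.5% at 200 and 21.8% at 280 minutes. They are a selection, and another middle embryo reached 80%. The slope there, -0.0597 ± 0.0320 (SE), did not pass in the regression (adjusted p = 0.591). Within the early library the slope had the opposite sign, 0.0518 ± 0.0462 (SE; adjusted p = 0.798), so a fall within libraries was not shown.

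CJA13315, with peaks at 1523 and 2023, fell too, on only 376 reads. Its higher peak held 42.9% to 100% in the early embryos (median 68.2%, n = 8), 0% to 75% in the middle ones (median 39.4%, n = 9) and 16.7% to 41.2% in the late ones (median 26.9%, n = 5). No late embryo reached the lowest early one. The slope was -0.0459 ± 0.0112 (SE) with an adjusted p of 0.00712.

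**Figure D2:**
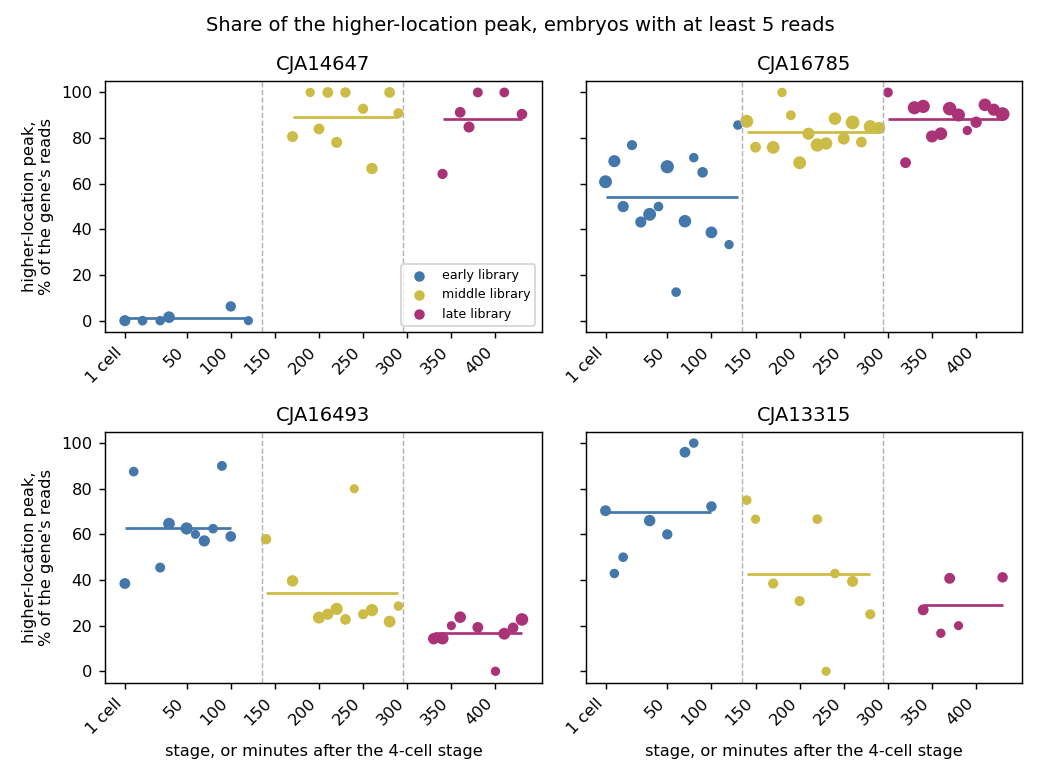
The share of the gene's reads in the higher-location peak is plotted for each embryo with at least 5 reads, against stage or minutes after the 4-cell stage. Points grow with the reads of the gene, horizontal lines are window means, and dashed lines mark the borders between libraries. CJA14647 goes from a mean of 1.30% to 89.3% across the first border, and CJA16493 goes from 62.7% to 34.4% and 16.7%.

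A share can fall because one end is lost or because the other is gained, so the counts of the 2 peaks were tested separately. Over all 117 genes the peaks were fitted with edgeR's quasi-likelihood test with no filter on low counts, because the filter used for the tests between windows below leaves both peaks of only 15 of the genes. Late against early, 8 genes gained the higher peak alone and 11 the lower alone, while 13 lost the higher alone and 5 the lower alone. Of these, edgeR's test of unequal fold change within a gene called 3, 4, 2 and 0. Both peaks rose in 30 genes and fell in 20, 2 genes went opposite ways, and in 28 neither peak passed. Among all 4619 peaks, 32.9% rose and 30.7% fell in this comparison. The log2 fold changes of the peaks had the same sign in 98 of the 117 genes, and they differed by a median of 0.76. The difference between the ends was under 1 on the log2 scale in 75 genes.

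**Figure D3:**
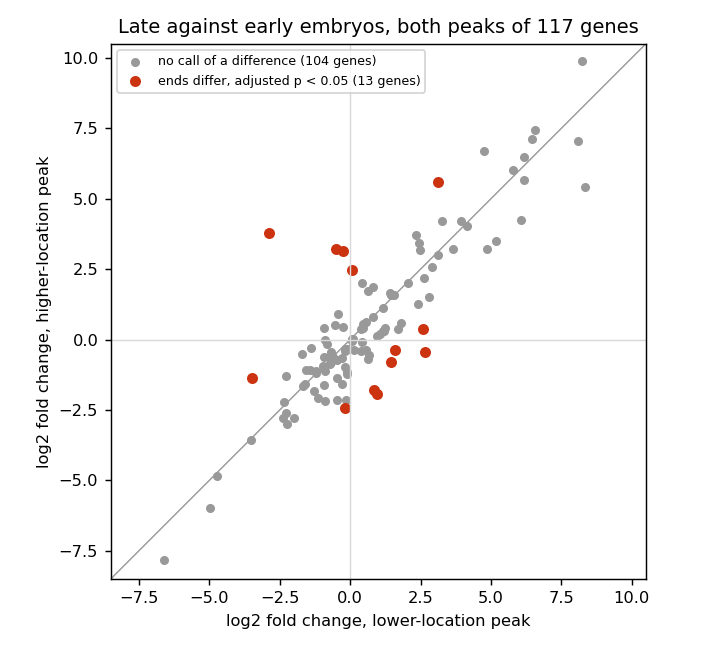
Each point is 1 of the 117 genes, with the log2 fold change (late against early embryos, edgeR without the filter on low counts) of the lower-location peak across and of the higher-location peak up. The line marks equal change, and the 13 genes in red, whose ends differ at an adjusted p under 0.05, lie off it.

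For the 14 genes whose higher-peak share fell over the course, neither gain of the lower peak nor loss of the higher accounted for most. Late against early, the lower peak alone rose in 5 of them and the higher peak alone fell in 4. In 1 the lower rose and the higher fell, in 1 both rose, in 1 both fell, and in 2 neither passed. For the 5 rises, the higher peak alone rose in 3 (CJA16785, and CJA16954 and CJA10373, which are named after their values were seen). In CJA14647 the lower fell and the higher rose, and in CJA22674, also named after its values were seen, both fell (-2.28 ± 0.55 for the lower and -1.30 ± 0.45 for the higher on the log2 scale, SE). A pass of 1 peak alone does not show that the ends differ. Of the 19 genes, edgeR's test of unequal fold change within a gene called 11 in this comparison. Not all genes with 1 peak passing alone were among those 11. Whether an end counts as lost or gained depends on the scaling: with library size alone, in an alternative chosen after seeing the data, the lower peak alone rose in 3 of the 14 and the higher alone fell in 4, the ends went opposite ways in 2 and both fell in 3. Of the 5 rises the higher alone then rose in 2, since the lower peak of CJA16954 also fell (-0.96 ± 0.33, SE; edgeR adjusted p = 0.00749).

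In CJA16493 the gain of the lower end was the only change that passed late against early with TMM scaling. The lower peak had 0 to 146 counts per 1000000 reads (CPM) in the early embryos (median 53.6), 0 to 453 in the middle ones (median 239) and 0 to 1118 in the late ones (median 249). The higher peak had medians of 156, 109 and 50.6 CPM over the same windows. Late against early, the lower peak rose by 2.64 ± 0.47 on the log2 scale (SE; edgeR adjusted p = 1.65e-06), while the higher changed by -0.44 ± 0.40 (adjusted p = 0.335). A loss of the higher end did not pass with TMM scaling, but with library size alone it did, at -0.92 ± 0.38 (adjusted p = 0.0261), beside a rise of the lower by 2.31 ± 0.45.

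In CJA13315 a loss of the higher end was the only change that passed late against early. The higher peak had 0 to 767 CPM in the early embryos (median 137), 0 to 317 in the middle ones (median 22.4) and 0 to 108 in the late ones (median 14.2). The lower peak had 0 to 77.7 CPM early (median 2.94), 0 to 159 in the middle (median 32.5) and 0 to 78.5 late (median 0). From early to late the higher peak fell by 1.78 ± 0.47 on the log2 scale (SE; edgeR adjusted p = 0.000643), and the lower changed by 0.84 ± 0.49 (adjusted p = 0.130). With library size alone the higher fell by 2.29 ± 0.49, and the lower again did not pass.

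CJA16785 gained its higher end, while no change of its lower end passed with either scaling. The higher peak had 44.7 to 1544 CPM early (median 443), 906 to 3618 in the middle (median 1975) and 492 to 5687 late (median 3209). The lower peak had medians of 341, 287 and 279 CPM. From early to late the higher peak rose by 2.47 ± 0.35 on the log2 scale (SE; edgeR adjusted p = 3.98e-09) and the lower changed by 0.08 ± 0.37 (adjusted p = 0.867).

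CJA14647 and CJA23007 are the 2 genes whose ends went opposite ways late against early. In CJA14647 the lower peak fell by 2.90 ± 0.68 on the log2 scale (SE; edgeR adjusted p = 0.000156) and the higher rose by 3.79 ± 0.64 (adjusted p = 4.12e-07). Its higher peak had 0 to 98.6 CPM early (median 0), 0 to 634 in the middle (median 192) and 0 to 284 late (median 42.3), so its level was highest in the middle window. CJA23007, named after its values were seen, has peaks at 4967 and 5184, the higher holding 0% to 35.5% early (median 20%, n = 9), 0% to 26.7% in the middle (median 7.69%, n = 11) and 0% to 12.5% late (median 1.45%, n = 10). Its lower peak rose by 0.96 ± 0.35 (edgeR adjusted p = 0.0142) and its higher fell by 1.95 ± 0.57 (adjusted p = 0.00225), but with library size alone the rise of the lower, 0.63 ± 0.34, did not pass (adjusted p = 0.197).

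**Figure D4:**
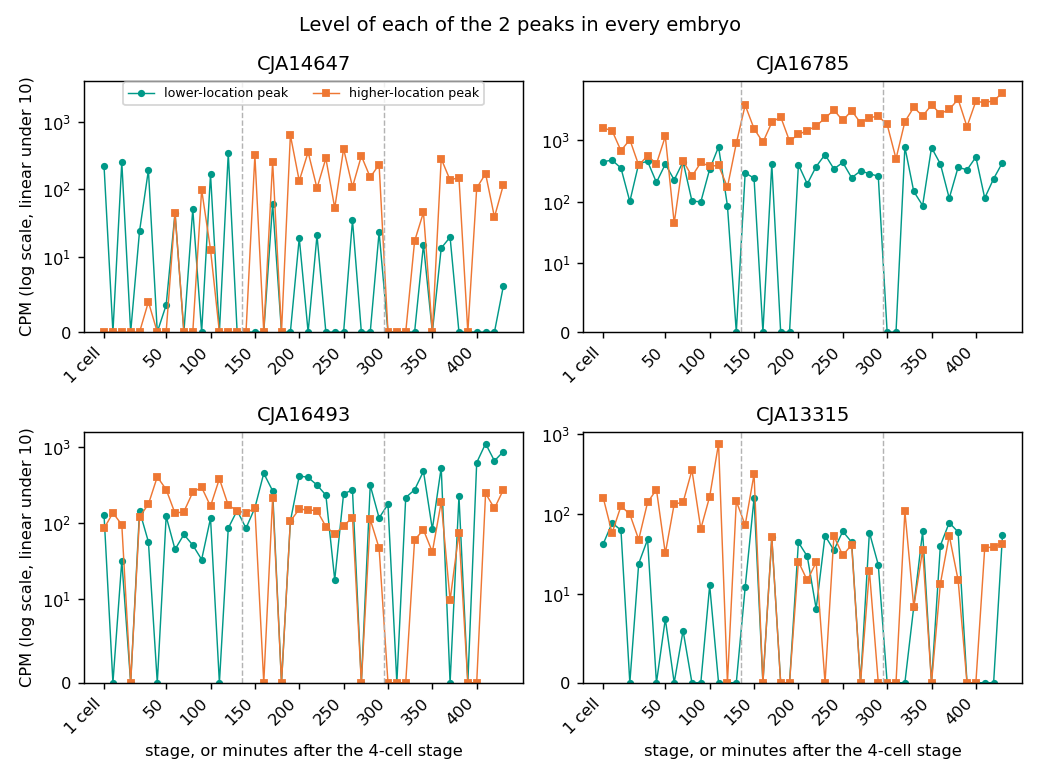
The CPM of the lower-location and the higher-location peak is plotted for each of the 46 embryos, on a log axis that is linear under 10, with dashed lines at the borders between libraries. In CJA16785 the lower peak has medians of 341, 287 and 279 CPM while the higher climbs, in CJA16493 the lower peak climbs, and in CJA14647 the peaks change places.

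Between the early and the middle window the same pattern of joint change held without the filter. Both peaks rose in 32 genes and fell in 17, 1 of either peak passed in 30, 1 gene went opposite ways (CJA14647) and 37 had no call, beside 30.0% of all peaks that rose and 26.5% that fell. The ends differed in 17 of the 117 genes by edgeR's test of unequal fold change within a gene, beside 8.35% of all 563 genes with 2 or more peaks. From middle to late, both peaks rose in 13 genes and fell in 5, and 74 had no call, beside 16.2% and 11.2% of all peaks. The ends differed in 2 genes (0.888% of all), CJA09787 and CJA10373, both named after their values were seen. From early to late the ends differed in 13 genes, beside 9.77% of all.

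With the filter on low counts, 1545 peaks were tested, 64 of them in these genes, and both peaks remained in 15 genes. A peak that passed only through the window where it is high had to differ, so these counts describe the well-counted peaks and not all 117 genes. In the middle against the early window, 30 of the 64 peaks rose and 13 fell, beside 32.5% and 26.7% of all peaks tested. In the late against the middle window, 11 rose and 10 fell, beside 14.4% and 18.7%. Late against early, 24 rose and 17 fell, beside 32.4% and 35.9%. The median log2 fold change of these peaks was 0.56, -0.14 and 0.06 in the 3 comparisons, beside 0.10, -0.09 and -0.06 over all peaks tested. Scaling by library size alone moved the median of all peaks to -0.22 late against middle and to -0.31 late against early.

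Among the peaks with the largest rises, both ends of CJA12015 and CJA01483 were nearly silent early. The higher peak of CJA12015 had 2 reads in the early library, 568 in the middle one and 3607 in the late one. Relative to all listed reads, it stood at 254 times the early value in the middle window (95% exact counting interval 70.0 to 2103) and 1878 times in the late one (519 to 15511). The embryo at 280 minutes held 364 of the 568 middle reads, and 5 of the 16 middle embryos had none. Without it, in an alternative chosen after seeing the data, the middle ratio was 103, and without the embryo at 340 minutes, which held 1571 late reads, the late ratio was 1333. Its lower peak had 0 early reads and was at least 181-fold higher late, taking 3 counts over the early library as the floor. The lower peak of CJA01483 had 1 early read, 386 middle reads and 849 late reads, a late ratio of 884 (158 to 34954), and its higher peak, with 0 early reads, was at least 26-fold higher late. The higher peak of CJA12015 and the lower one of CJA01483 were named from the peaks past the filter. Each had reads in 1 of 16 early embryos, so they passed through the later windows, where they are high. Their rises are therefore partly set by that selection.

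Among member peaks past the filter with at least 20 CPM, the largest falls from early to middle were both ends of CJA06132, with peaks at 128 and 252. The lower peak had 0 to 2288 CPM early (median 1360), 0 to 471 in the middle (median 52.9) and 0 to 165 late (median 83.1). The higher peak had 146 to 713 CPM early (median 571), 0 to 20.9 in the middle (median 0) and 0 to 120 late (median 12.8). No middle or late embryo reached the lowest early value of the higher peak. From early to middle the lower peak fell by 3.57 ± 0.41 on the log2 scale (SE; edgeR adjusted p = 5.84e-11) and the higher by 5.43 ± 0.38 (adjusted p = 6.48e-18). From early to late, the lower peak of CJA05639 fell by 5.02 ± 0.65 (adjusted p = 1.41e-09), from a median of 653 CPM to a median of 0, and the higher peak of CJA06132 by 3.86 ± 0.37 (adjusted p = 6.36e-14). These peaks and the lower one of CJA06132 passed the filter mainly through the early window, where they are high. Their falls are therefore partly set by that selection. The lower peak of CJA05639 had reads in 14 of 16 early, 7 of 16 middle and 6 of 14 late embryos.

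From middle to late, the higher peak of CJA12015 rose by 2.31 ± 0.65 on the log2 scale (SE; edgeR adjusted p = 0.00485) and that of CJA19459 by 2.16 ± 0.43 (adjusted p = 5.57e-05). The lower peak of CJA19459 rose with it (adjusted p = 1.63e-05), from a median of 112 to 1171 CPM, so this gene too moved at both ends. The peaks of these genes are highest in the late window, which helped them pass the filter. The lower peaks of CJA00676 and CJA02108 fell by 4.07 ± 0.64 (adjusted p = 1.46e-06) and 3.14 ± 0.81 (adjusted p = 0.00204). CJA00676 had medians of 25.8, 425 and 0 CPM over the 3 windows and CJA02108 medians of 0, 395 and 21.3 CPM, with up to 1168 CPM in an early embryo. Both peaks passed the filter through the middle window, where they are high. Without the filter the changes were -3.98 ± 0.62 and -3.02 ± 0.83 (edgeR adjusted p = 6.28e-07 and 0.00393).

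In the 15 genes with both peaks past the filter, the ends differed from early to middle in CJA16785 and CJA06132 (9.09% of the 88 genes tested). The higher peak of CJA16785 changed by 1.69 ± 0.39 more than the lower on the log2 scale (SE; edgeR adjusted p = 0.00159). That of CJA06132 changed by 1.86 ± 0.52 less (adjusted p = 0.00729), but the quasi-binomial regression on window did not call this gene (adjusted p = 0.199). Its higher peak passed the filter through the early window, since only 6 of 16 middle embryos had reads of it. From middle to late, 0 of the 15 differed at the threshold in edgeR's test, beside 2.27% of the 88. At an unadjusted p under 0.05 it gave 3, and the quasi-binomial regression on window gave 2 of these genes. The smallest p in each direction had the higher peak of CJA06132 at 1.77 above the lower (adjusted p = 0.154) and that of CJA12992 at 0.94 below it (adjusted p = 0.539). Late against early they differed in CJA16785, by 2.37 ± 0.41 (adjusted p = 4e-06), and in CJA10172, by 1.44 ± 0.49 (adjusted p = 0.0374), beside 11.4% of the 88. The regression on window called CJA16785 (adjusted p = 3.64e-08) but not CJA10172 (adjusted p = 0.112), nor did the regression on position call the latter (adjusted p = 0.174). CJA10172 has peaks at 129 and 2279, and neither passed alone: the lower changed by -0.62 ± 0.29 (adjusted p = 0.0579) and the higher by 0.83 ± 0.39 (adjusted p = 0.0551).

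In other genes no change of the shares was detected, which does not show that they were steady. CJA36095, the gene nearest to equal use, had 2126 reads in the lower and 2159 in the higher peak, 1151 apart. The higher held 28.6% to 73.3% early (median 46.5%, n = 14), 20% to 59.2% in the middle (median 51.1%, n = 15) and 33.3% to 66.7% late (median 47.2%, n = 12). Its slope was 0.000144 log-odds per step with an adjusted p of 0.976 over 41 embryos. From early to middle both its peaks rose, the lower by 0.57 ± 0.25 on the log2 scale (SE; edgeR adjusted p = 0.0443) and the higher by 0.61 ± 0.24 (adjusted p = 0.0252). In CJA07137, the widest pair, the higher peak held medians of 73.2%, 77.8% and 81.2% over the windows, within the spread between embryos (SDs of 15.6, 12.2 and 15.8 percentage points). No change in the use of these ends, 13091 apart, was detectable at this depth (adjusted p = 0.872).

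In the 104 genes with at least 20 reads in each window, the larger peak was the same one in all windows in 79, the higher in 34 and the lower in 45, and it switched in 25. The larger peak was read from summed reads without a test, so a difference of few reads counts as a switch. CJA36095, in which no change of the share was detected, is among the 25, with 616 lower and 594 higher reads in the late window. The mean share of the higher peak moved between early and middle embryos by a median of 6.71 percentage points in either direction (99 genes with at least 3 usable embryos on each side), and by 20 points or more in 17 genes. From middle to late it moved by a median of 5.57 points (110 genes), and by 20 points or more in 4. In the closer pairs the medians were 4.97 points (313 genes, 22 at 20 or more) and 3.78 points (338 genes, 6 at 20 or more). These movements include counting error, and the closer pairs had more reads, with a median of 1184 against 894.

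The share varied between embryos. The dispersion of the regression, which is 1 where reads are independent molecules and embryos differ only by the fitted slope, had a median of 2.49 (quartiles 1.75 and 3.34) and was over 2 in 73 genes, against a median of 1.74 in the closer pairs. The parts of PCR copies and of differences between embryos in it were not tested. It was over 10 in 4 genes, named after their values were seen. In CJA16577, with peaks at 1814 and 1934, successive early embryos used different ends: the 1-cell embryo had 1 read in the lower and 164 in the higher peak, the 2-cell embryo 218 and 50, and the 4-cell embryo 0 and 26. The embryo at 10 minutes had 1 and 11, that at 20 minutes 113 and 5, and that at 30 minutes 576 and 12. From 140 minutes the higher peak had 1 read in the middle and 2 in the late library. The regression on position gave CJA16577 a slope of -0.706 log-odds per step, which did not pass. With so few later reads of the higher peak, its size is not interpreted.

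CJA03831, the gene with the most reads (22102), has peaks at 1247 and 1406. The higher held 24.3% to 71.7% early (median 51.5%, n = 15), 0% to 80% in the middle (median 31.1%, n = 16) and 19.3% to 45.8% late (median 34.9%, n = 10). Its share fell over the course (slope -0.0298 ± 0.00462, SE; adjusted p = 7.88e-06), and within the early library it held 52.7% in the 1-cell embryo, 58.1% at 50, 33.1% at 100 and 24.3% at 120 minutes, the last in an embryo with 14709 reads of listed genes. The slope within the early library was -0.0632 ± 0.0231 (SE; adjusted p = 0.283), while that within the late one was 0.0787 ± 0.0314 (SE; adjusted p = 0.660). Late against early the higher peak fell by 1.36 ± 0.39 on the log2 scale (SE; edgeR without the filter, adjusted p = 0.00195) and the lower changed by -0.48 ± 0.44 (adjusted p = 0.340). With library size alone the lower fell too (-0.94 ± 0.37, adjusted p = 0.0210), and edgeR's test of unequal ends called no difference with either scaling (adjusted p = 0.426 with TMM and 0.277 with library size).

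CJA17074 has peaks at 82 and 317, and no change of its share passed. Its higher peak held 42.5%, 63.7%, 46.1% and 56.2% in the embryos of 1, 2 and 4 cells and at 10 minutes. It then held 20.7% at 20, 19.6% at 30 and 10.1% at 50 minutes, with 45.8% at 40 minutes on 24 reads. The early slope was -0.205 ± 0.0440 (SE; adjusted p = 0.0535), the smallest p within any library among these genes, and the slope over the course was -0.0151 with an adjusted p of 0.303. CJA10373, with peaks at 5265 and 5429, is a rise that rests on 1 embryo. That at 340 minutes had 3087 of the 3292 late reads of the higher peak, and without the embryos at 330 and 340 minutes the adjusted p of its slope went from 0.0398 to 0.768.

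**Figure D5:**
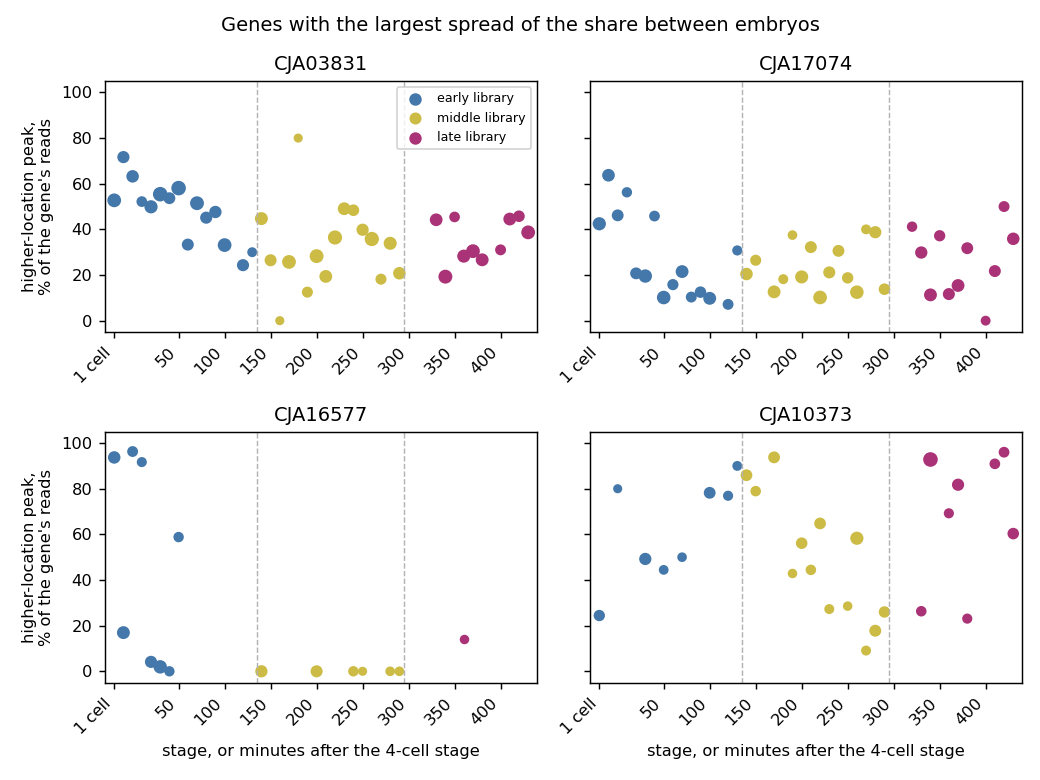
The share of reads in the higher-location peak is plotted against stage or minutes after the 4-cell stage for the 4 genes with a dispersion over 10, in embryos with 5 or more of its reads. Points grow with the reads of the gene. CJA03831 has an early median of 51.5% and a middle one of 31.1%, CJA17074 is highest in its first embryos, CJA16577 alternates between ends, and CJA10373 spreads over most of the range in each library.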

How the data were processed

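For 46 single embryos the authors deposited raw counts of reads, in whole numbers, for every listed peak and gene, and the headers state no scaling. Per the submitters' processing notes, Bowtie2 2.1.0, HTSeq 0.5.4p3 and CASAVA 1.8 were used, and what each did, the genome build, the annotation and the peak calling were not given in the sources used here. No molecular identifiers are named, so PCR copies may be counted, and intervals and lower bounds cover counting error only. Each listed peak holds 98 reads or more and at least 4.04% of its gene, which makes the table a selection, and its totals are not sequencing depth. For 330 and 340 minutes the labels mention extra embryos, and which of them the table holds is not certain.

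The members and the gene lists were chosen with earlier results of these data known. Usage over the course was tested by quasi-binomial regression of a peak's share of its gene's total row on embryo position (R 4.3.3), in embryos with 5 or more of its reads and genes with at least 10 such embryos, with the dispersion held at 1 or more. Peaks were tested with edgeR 4.0.16 (quasi-likelihood test, TMM factors, filterByExpr), and unequal change of a gene's peaks with its diffSpliceDGE, on all embryos in 1 fit. CPM values are relative to the reads in the 1545 peaks past the filter, with TMM factors. P-values are two-sided and adjusted by Benjamini-Hochberg over all peaks or genes tested. SEs of log2 fold changes are their size divided by the square root of F, an approximation. Embryos are the replicates, and p-values measure the spread between them. The regression on position, edgeR's peak test and diffSpliceDGE were run on simulated data, both edgeR tests without the filter and for middle against early alone. The regression on window, the fit with the library as a covariate and the DESeq2 test were not. No more than 2 identifiers that rose and 2 that fell are named per comparison, those with the largest change among called peaks or genes with at least 20 CPM, and for usage over the course those whose mean share changed most. The genes with the widest pair, the most reads and the most equal peaks are named too, and others as having been chosen after their values were seen. Alternatives were DESeq2 1.42.0 (size factors and Wald test), library size alone, no filter, other read minimums, the share of listed peaks, the library as a covariate, single libraries, and leaving out the shallow embryos, those at 330 and 340 minutes or those of 1, 2 and 4 cells. Removing the filter together with another scaling, or with the shallow embryos left out, was added after seeing the data, as was leaving 1 embryo out of ratios of summed reads.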

Additional observations from a re-analysis of the deposited data

How the results depend on the processing

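The 19 calls of usage over the course became 15 to 22, with 3 to 8 rises, with other read minimums, the share of listed peaks, and the embryos left out as described, and 13 of the 19 passed in all 6 of these. The count was 0 with the library as a covariate, 0 in the early, 0 in the middle and 0 in the late library alone. In these alternatives fewer embryos or genes entered, or the step between libraries was removed. With edgeR's test on position, 1 of the 15 testable genes was called, beside 10 of all 88 tested. The main regression called 4 of the same 15, so the tests disagreed on these genes. Calls of unequal ends, 2 from early to middle in the main test, were 17 without the filter, 5 without the shallow embryos, 1 without the embryos of 1, 2 and 4 cells and 4 with the quasi-binomial regression on window, counted in the same genes as the main test. From middle to late, 0 became 2 without the filter and 2 with that regression. Late against early, 2 became 13 without the filter, 4 without the shallow embryos and 5 with that regression. Over all members it could test, that regression called 16 of 104, 4 of 108 and 16 of 101 genes in the 3 comparisons. Beside these stand 152 of 1113, 15 of 1161 and 172 of 1095 among all peaks it tested. Called peaks without the filter, which tests 234 member peaks in place of 64, were 130 in place of 43, 61 in place of 21 and 141 in place of 41. With the filter removed and library size alone, unequal ends were called in 20, 3 and 14 genes and peaks were 132, 67 and 157. With the filter removed and the shallow embryos left out, they were 15, 1 and 13 genes and 126, 54 and 136 peaks. The other alternatives kept each count within 1.5 times the main one. No paired analysis was possible because each time has 1 embryo and the windows share no replicate numbers. Depth limits the shares, since a share from 5 reads can take few values.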
